A study of Mus musculus with 10 samples.

Results

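The iron and haemoglobin handling genes followed here were 10 of the 56980 genes in the deposited table, found by symbol: Hp, Cd163, Lcn2, Tfrc, Steap3, Slc11a1, Slc11a2, Fth1, Ftl1 and Slc40a1. Each symbol stood on a single identifier. The set was put together by function, with earlier results of the same genotype comparison known, so the differences of these 10 genes between genotypes are a description and carry no test. Of the 10 genes, 9 passed the filter on low counts; Cd163 did not.

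The libraries were RNA-seq of mouse macrophages, 5 of Jaml KO cells and 5 of WT cells. Jaml encodes a junctional adhesion molecule-like protein of leukocytes. The KO titles mark a macrophage knockout, while the genotype tag of the same samples reads JAML Knockdown. Macrophages of both genotypes had first received lipopolysaccharide (LPS), a bacterial ligand of TLR4, (100 ng/ml, 8 h) and were afterwards exposed to ATP (5 mM, 30 min), so no library shows resting cells. The Cre driver, strain, age and sex of the mice, the tissue the cells came from, and whether the libraries came from separate animals are not stated in the labels, so a p-value reflects only how much these libraries vary, which may be technical variation. The KO columns carry the prefix SI, which no label explains, and were assigned by elimination because the series has no other group. Every direction given rests on that assignment. Jaml had 2 counts in KO 4, 2 counts in WT 1 and 0 in the other 8 libraries, under a floor of 3 counts per library, so it could not check the labels.

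The KO libraries held 19378160 to 22766319 counts and the WT libraries 19319512 to 21230317. Values are CPM, counts scaled to library size and composition, unless per length is stated. The macrophage genes Lyz2 and Cd68 were abundant throughout, Lyz2 at 16473 to 18213 CPM in KO and 17800 to 19063 CPM in WT, and Cd68 at 2375 to 2737 CPM in KO and 2411 to 2547 CPM in WT. Some KO libraries stood apart. KO 1 and KO 2 carried hepatocyte transcripts, with Alb at 91.3 and 101 CPM against 3.29 to 7.51 CPM in the other KO libraries and 2.46 to 15.7 CPM in WT. KO 1 and KO 3 lay at -27.6 and -37.6 on the second principal component of all tested genes, which held 17.7% of the variance, while the other 8 libraries lay between -4.3 and 16.6. Several values are also given without these libraries.

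Macrophages take up iron from transferrin, from haemoglobin and from engulfed red cells, store it in ferritin and return it to the blood through ferroportin. During infection they hold iron back and secrete proteins that keep it from microbes. Iron regulatory proteins bind a hairpin, the iron-responsive element, in certain messenger RNAs when iron is scarce. Binding in the 5′ untranslated region blocks translation, and binding in the 3′ untranslated region of the transferrin receptor mRNA protects it from decay. Much of this control therefore acts on translation, which counts of RNA do not measure.

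The hairpin sites are shown because, for the genes that hold one, its place tells control through translation from control through mRNA stability. GENCODE M21 transcripts of the 10 genes (build GRCm38) were searched on the transcript strand for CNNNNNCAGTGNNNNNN, an unpaired C, a 5-base arm, the 6-base loop and a second 5-base arm that pairs with the first, G-U pairs allowed. A match was found in the 5′ untranslated region of Fth1 (chr19:9982732-9982761, plus strand), Ftl1 (chr7:45459778-45459807, minus strand) and Slc40a1 (chr1:45925464-45925493, minus strand), and 4 matches in the 3′ untranslated region of Tfrc on the plus strand of chromosome 16. The first of these lay at chr16:32631219-32631248 and the last at chr16:32631710-32631739. Of 21718 genes with an annotated untranslated region, 0.737% held such a match. Hp, Cd163, Lcn2, Steap3, Slc11a1 and Slc11a2 held none of these letters, which says nothing about other forms of the hairpin. Capitals mark the 6-base loop.
Fth1: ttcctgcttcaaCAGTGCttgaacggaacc
Ftl1: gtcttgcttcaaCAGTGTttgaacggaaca
Slc40a1: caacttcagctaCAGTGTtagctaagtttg
Tfrc, first site: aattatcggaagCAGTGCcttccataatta
Tfrc, last site: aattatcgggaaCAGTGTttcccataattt

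Hp was the gene of the set that differed most between genotypes. It encodes haptoglobin, the plasma protein that captures free haemoglobin, made mainly by the liver and also by myeloid cells (ENSMUSG00000031722, chromosome 8, 110301760 to 110305804 as the table lists it). Its level was 1077, 1098, 1356, 1376 and 1543 CPM in KO 1 to KO 5, against 364, 269, 473, 435 and 350 CPM in WT 1 to WT 5. Every KO library lay above every WT library, and the lowest KO value stood far above the highest WT value. The means were 1290 ± 199 CPM in KO and 378 ± 79.2 CPM in WT (SD, n = 5 each), a log2 fold change of 1.77 ± 0.15 (estimate ± SE, as for all log2 values that follow) or 3.41-fold higher in KO.

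Because Hp is also a liver gene, its values were set beside the hepatocyte transcripts. The summed level of 6 hepatocyte genes was 125 and 144 CPM in KO 1 and KO 2, with 4.17 to 10.7 CPM in the remaining KO libraries, against 21.3 CPM in WT 2 and 3.59 to 5.77 CPM in the other WT libraries. Hp was lowest of its genotype in KO 1 and KO 2 and in WT 2. Leaving out both of these KO libraries, a check added once the values were known, gave a log2 fold change of 1.91 for Hp. The part of liver RNA in the Hp values was not tested. Apoa1, the second most abundant hepatocyte gene, was at 9.63 and 12.5 CPM in KO 1 and KO 2 and at 0.269 to 0.806 CPM in the other KO libraries, against 0.0505 to 1.93 CPM in WT. The summed list did not pass a difference between genotypes (exact permutation test, two-sided, p = 0.214, Benjamini-Hochberg adjusted 0.536 over 5 marker lists). The smallest p that 5 against 5 allows is 0.00794. None of the 4 tested genes of the list was called, but all came near the limit (edgeR adjusted p = 0.0563 to 0.0624). Their log2 fold changes were 2.79 to 3.1, with the highest values in KO 1 and KO 2.

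**Figure D1:**
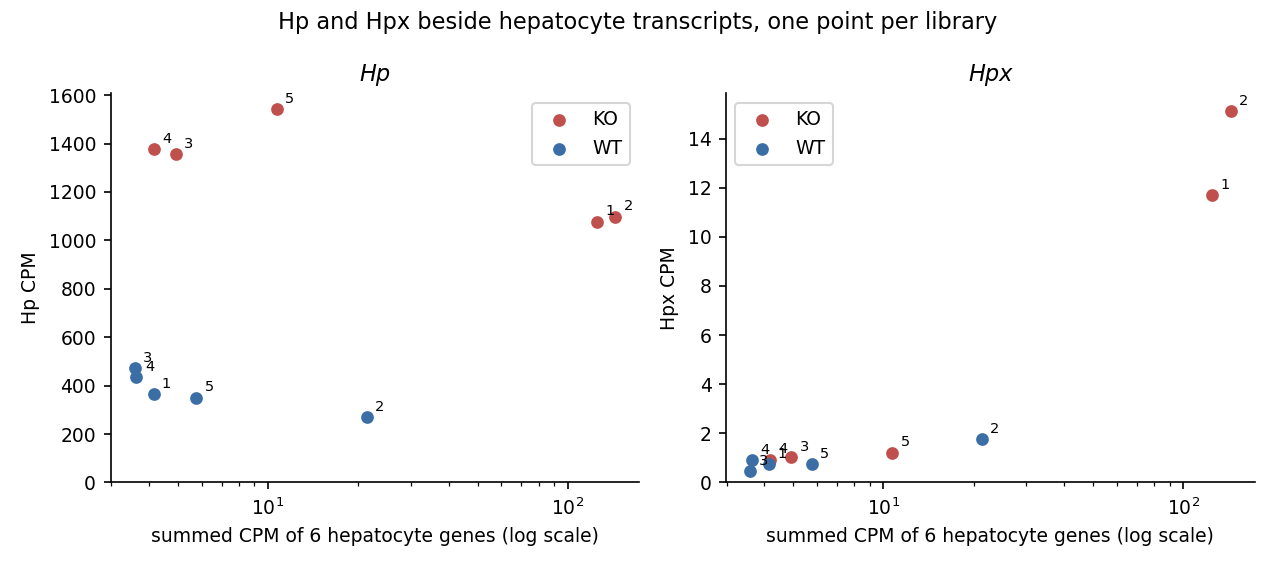
Level of Hp (left) and of the haem-binding protein gene Hpx (right), in CPM, against the summed CPM of 6 hepatocyte genes (log axis), 1 numbered point per library. Hp is lower in KO 1 and KO 2 (1077 and 1098 CPM), the libraries richest in hepatocyte transcripts, than in KO 3 to KO 5, while Hpx is above 11 CPM only in KO 1 and KO 2.

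Cd163 encodes the macrophage receptor for the haptoglobin-haemoglobin complex, and it was barely detected. Its raw counts were 12, 14, 7, 6 and 5 in KO 1 to KO 5, against 4, 4, 9, 2 and 2 in WT 1 to WT 5. The groups overlapped, and the WT 4 and WT 5 counts lay under the floor of 3 counts. The levels of 0.403 ± 0.162 CPM in KO and 0.214 ± 0.145 CPM in WT (SD, n = 5 each) are too low for a comparison at this depth. The receptor was thus near the detection limit in the same libraries in which its ligand's RNA was abundant. 

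Lcn2, a lipocalin that binds bacterial siderophores and so withholds iron from microbes, was also higher in KO. Its level was 672, 707, 769, 761 and 797 CPM in KO 1 to KO 5, against 446, 443, 480, 459 and 469 CPM in WT 1 to WT 5. The groups did not overlap, and within KO the lowest values were again those of KO 1 and KO 2. The mean was 741 ± 50.5 CPM in KO and 459 ± 15.3 CPM in WT (SD, n = 5 each), with a log2 fold change of 0.69 ± 0.05, and 0.76 without KO 1 and KO 2. Its receptor gene Slc22a17 was close to the floor at 0.344 to 0.716 CPM in KO and 0.498 to 0.707 CPM in WT.

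Hp and Lcn2 are also products of neutrophil granules, so neutrophil markers were read in the same libraries. The summed level of 12 such markers was 153 to 170 CPM in KO and 159 to 167 CPM in WT (exact permutation test, two-sided, p = 0.937, adjusted 0.937). The markers S100a9, Ngp, Elane, Mpo, Ly6g, Retnlg and Cxcr2 did not pass the low-count filter, and none exceeded 0.375 CPM in any library. Mmp8 and Csf3r held most of the sum, with Mmp8 at 63.1 to 77.7 CPM in KO and 58.6 to 72.8 CPM in WT, and Csf3r at 47.3 to 54.0 CPM in KO and 52.3 to 60.3 CPM in WT. Of the 5 tested markers, S100a8 and Camp were higher in KO, Padi4 was lower, and Mmp8 and Csf3r were not called. S100a8 was at 19.5 to 23.6 CPM in KO and 12.5 to 16.1 CPM in WT. The log2 fold changes were 0.56 ± 0.07 for S100a8, 0.53 ± 0.14 for Camp and -0.56 ± 0.07 for Padi4 (edgeR adjusted p = 0.000142, 0.0133 and 7.96e-05). The part of neutrophil RNA in the Hp and Lcn2 values was not tested.

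Among iron importers, Tfrc and Steap3 were modestly higher in KO. Tfrc encodes the transferrin receptor that brings iron-loaded transferrin into endosomes, and its mRNA carries the hairpins shown above. Tfrc was at 733, 806, 846, 825 and 771 CPM in KO 1 to KO 5, against 634, 634, 662, 721 and 653 CPM in WT 1 to WT 5. The lowest KO library lay just above the highest WT library, so the groups did not overlap. The log2 fold change was 0.27 ± 0.05, or 1.21-fold higher in KO.

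Steap3 encodes the endosomal reductase that converts the released ferric iron to the ferrous form. Its level was 43.3, 53.6, 54.5, 50.9 and 51.0 CPM in KO 1 to KO 5, against 41.5, 41.8, 42.8, 41.5 and 42.7 CPM in WT 1 to WT 5. KO 1 lay next to the WT values and the other KO libraries lay clearly above them. Its log2 fold change was 0.27 ± 0.06. Steap3 varied little among the WT libraries, with an SD of 0.643 CPM in WT and 4.40 CPM in KO.

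The related transporters Slc11a2 and Slc11a1 differed in how they compared between genotypes. Slc11a2 encodes the divalent metal transporter that moves ferrous iron out of endosomes. Its level was 222, 255, 232, 261 and 232 CPM in KO 1 to KO 5, against 293, 291, 271, 286 and 283 CPM in WT 1 to WT 5. All KO values lay below all WT values, with a log2 fold change of -0.25 ± 0.05, or 1.19-fold lower in KO. The difference on the log2 scale was -0.13 with library totals in place of composition scaling, a setting under which the median of all genes moved to 0.12 from 0.01.

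Slc11a1 encodes the metal transporter of phagolysosomes known as Nramp1, a resistance gene for intracellular bacteria. It was at 900, 962, 892, 934 and 950 CPM in KO 1 to KO 5, against 941, 893, 930, 893 and 893 CPM in WT 1 to WT 5. The values of the genotypes were interleaved, and the log2 fold change was 0.03 ± 0.03. With library totals it was 0.14, which is close to the shift of all genes under that scaling. Slc11a1 varied little within a genotype, its highest library being 1.08 times its lowest in KO and 1.05 times in WT. It was the steadiest of the 9 tested genes in KO, and Steap3 was in WT, at 1.03 times.

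Ferritin RNA made up a large share of each library, but the heavy chain gene Fth1 was the least reproducible of the tested genes here in KO. Fth1 encodes the subunit that oxidises iron for storage, and it was at 5821, 12330, 7094, 7334 and 12847 CPM in KO 1 to KO 5, against 7944, 10449, 12209, 9398 and 12116 CPM in WT 1 to WT 5. KO 2 and KO 5 lay at the level of the highest WT libraries, and the other KO libraries lay below every WT library. The log2 fold change was -0.20 ± 0.22, and it was 0.06 without KO 1 and KO 3, so no direction is given. Its highest library was 2.21 times its lowest in KO and 1.54 times in WT, where the median tested gene whose mean log2 CPM reached 5 had 1.16 times in KO and 1.13 times in WT. Of the hepatocyte-rich libraries, KO 1 had the lowest Fth1 value of all and KO 2 the second highest.

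Ftl1, the light chain that helps form the iron core, varied far less. Its level was 3569, 3789, 3864, 3650 and 3922 CPM in KO 1 to KO 5, against 3180, 3753, 3149, 3462 and 3291 CPM in WT 1 to WT 5. WT 2 lay within the KO range and the other WT libraries lay below it. The log2 fold change was 0.16 ± 0.05. Ftl1 lost its call without KO 2, KO 3, KO 5, WT 1, WT 3 or WT 5, taken out singly, and also without KO 1 and KO 2 and without KO 1 and KO 3.

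Many light chain counts stood under Ftl1-ps1, named as a pseudogene of Ftl1. Ftl1-ps1 held 50.7% to 56.9% of the counts listed under the 2 names, at 4155 to 4600 CPM in KO and 3858 to 4165 CPM in WT. Reads of the 2 genes may have been split by the authors' counting, so the value of Ftl1 alone is uncertain. Summed with Ftl1-ps1, Ftl1-ps2 and Ftl2-ps, a check added once the values were known, Ftl1 had a log2 fold change of 0.12 and was called. That sum was not refitted without single libraries. The listed Fth1 copies held only 3 to 11 counts per library, so such splitting was not seen for Fth1. Together Fth1, Ftl1 and Ftl1-ps1 took 1.48% to 2.15% of the counts of a library.

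Slc40a1 encodes ferroportin, the iron exporter, and its RNA was scarce. It was at 4.19, 3.97, 4.52, 3.44 and 3.18 CPM in KO 1 to KO 5, against 6.91, 5.57, 4.04, 4.92 and 4.33 CPM in WT 1 to WT 5. The groups overlapped through WT 3 and WT 5, and the WT 1 value stood highest. The log2 fold change was -0.41 ± 0.16 and was not called, though it was without WT 3, at -0.48, while without WT 1 the value was -0.27. These values rest on 63 to 101 counts in the KO libraries and 80 to 140 counts in the WT libraries.

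**Figure D2:**
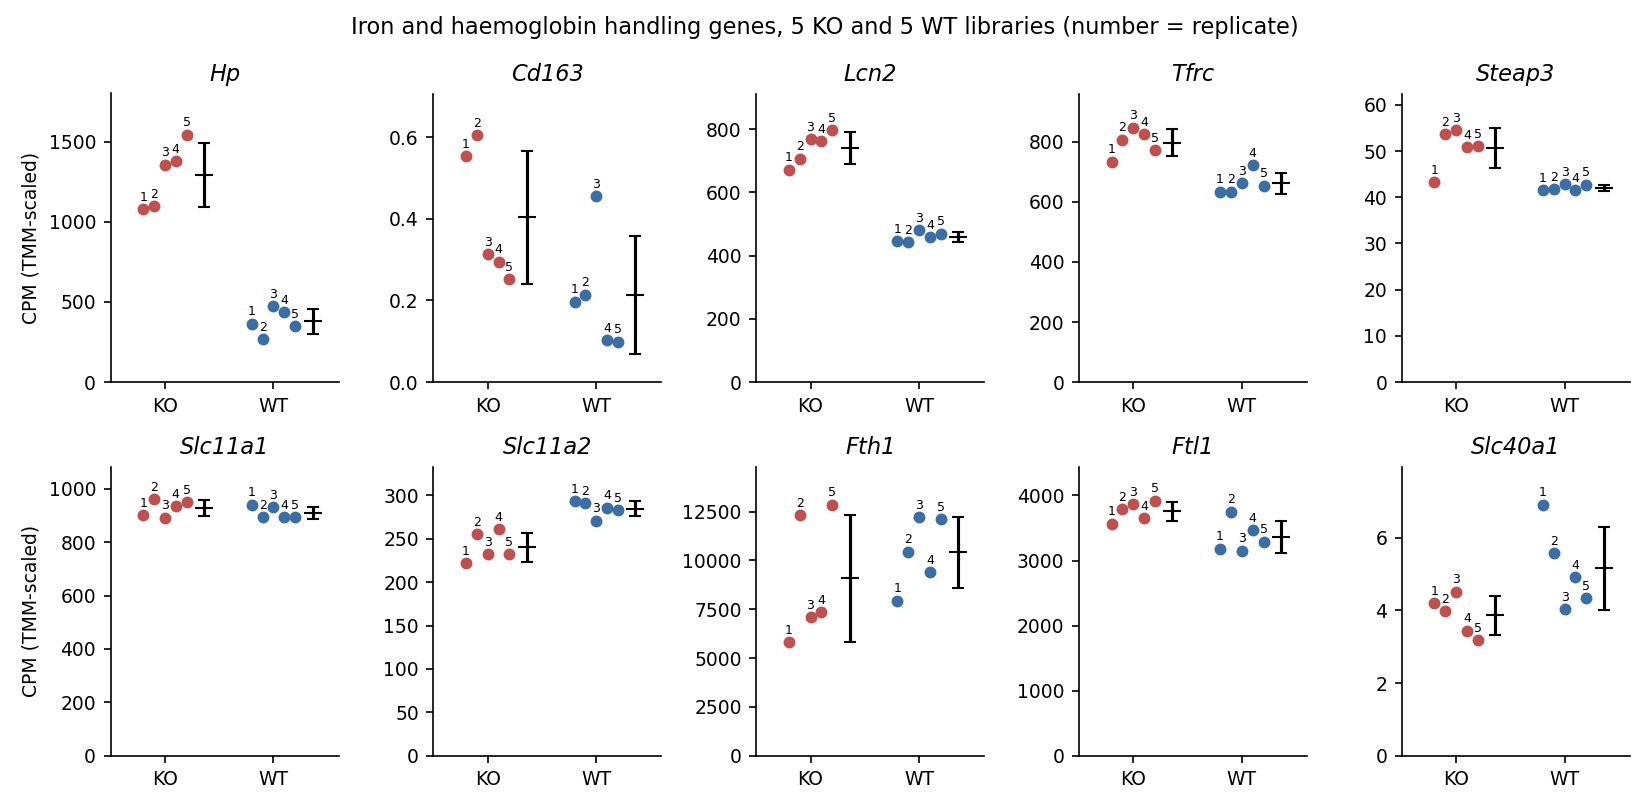
Level of the 10 genes in CPM (linear axes from 0), with 1 numbered point per library, KO left of WT, and the mean ± SD beside each group. The groups separate for Hp, Lcn2, Tfrc, Steap3 and Slc11a2 and overlap for the other genes, and Fth1 shows KO 2 and KO 5 far above KO 1, KO 3 and KO 4.

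In bulk RNA, fewer cells of a type and less RNA per cell cannot be told apart, which holds for every difference given. Counted together, 6 of the 9 tested genes were called by edgeR's quasi-likelihood test at a Benjamini-Hochberg adjusted p of 0.05, fitted over the whole table, against 29.1% of all 14436 genes tested. Hp, Lcn2, Tfrc, Steap3 and Ftl1 were higher in KO and Slc11a2 was lower, where 14.1% of all genes were called higher and 15% lower. The genotypes did not overlap for 5 of the 9, against 23.3% of all genes. Since the set was chosen with this comparison known, nothing is read from these shares. The median log2 fold change of the 9 genes was 0.16, and that of all genes was 0.01. Hp was the only gene of the set with an at least 2-fold difference.

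Ordered by level per kilobase of the principal mRNA, the set spanned about 5 orders of magnitude. Fth1 came first, with 9779 ± 3503 CPM per kilobase in KO and 11220 ± 1959 in WT, and Ftl1 second, with 3883 ± 152 CPM per kilobase in KO and 3478 ± 257 in WT (SD, n = 5 each, as for the per-length values that follow). The next place differed. In KO it was held by Hp, at 959 ± 148 CPM per kilobase, whose range overlapped that of Lcn2 at 810 ± 55.2, followed by Slc11a1 at 401 ± 13.2. In WT, Lcn2 came next at 502 ± 16.7 CPM per kilobase, then Slc11a1 at 393 ± 10.1, and Hp came after both at 281 ± 58.9, with no overlap between these neighbours.

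The lower part of the order was the same in the genotypes and its neighbours did not overlap. Per kilobase of mRNA, Tfrc was at 163 ± 9.22 CPM in KO and 135 ± 7.39 in WT, Slc11a2 at 79.4 ± 5.54 in KO and 94.2 ± 2.77 in WT, and Steap3 at 17.3 ± 1.5 in KO and 14.4 ± 0.219 in WT. Slc40a1 followed at 1.15 ± 0.163 CPM per kilobase in KO and 1.53 ± 0.339 in WT, and Cd163 was last at 0.0916 ± 0.0369 in KO and 0.0485 ± 0.0328 in WT. Tfrc and Slc11a2, the importers, thus exceeded the exporter Slc40a1 in every library on a per-length scale. The gene lengths behind the deposited FPKM have no stated basis. At 6855 bases for Fth1 and 3203 bases for Ftl1, they exceeded the listed span of each gene. With these lengths, Fth1 and Ftl1 overlapped, at 4784 ± 1660 and 4249 ± 173 TPM (transcript levels scaled to length and to a fixed total) in KO. In WT they were at 5223 ± 859 and 3618 ± 302 TPM, and Hp overlapped Slc11a1 there. The overlap of the ferritin chains and the rank of Hp in WT therefore depend on the length used. Fth1 stayed first and Ftl1 second with either length, but that order leaves out Ftl1-ps1. With the counts of Ftl1-ps1 added over the Ftl1 mRNA length, the light chain stood at 8063 to 8439 CPM per kilobase in KO and 7553 to 7863 in WT, above Fth1 in KO 1, KO 3 and KO 4 and below it in KO 2, KO 5 and every WT library.

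**Figure D3:**
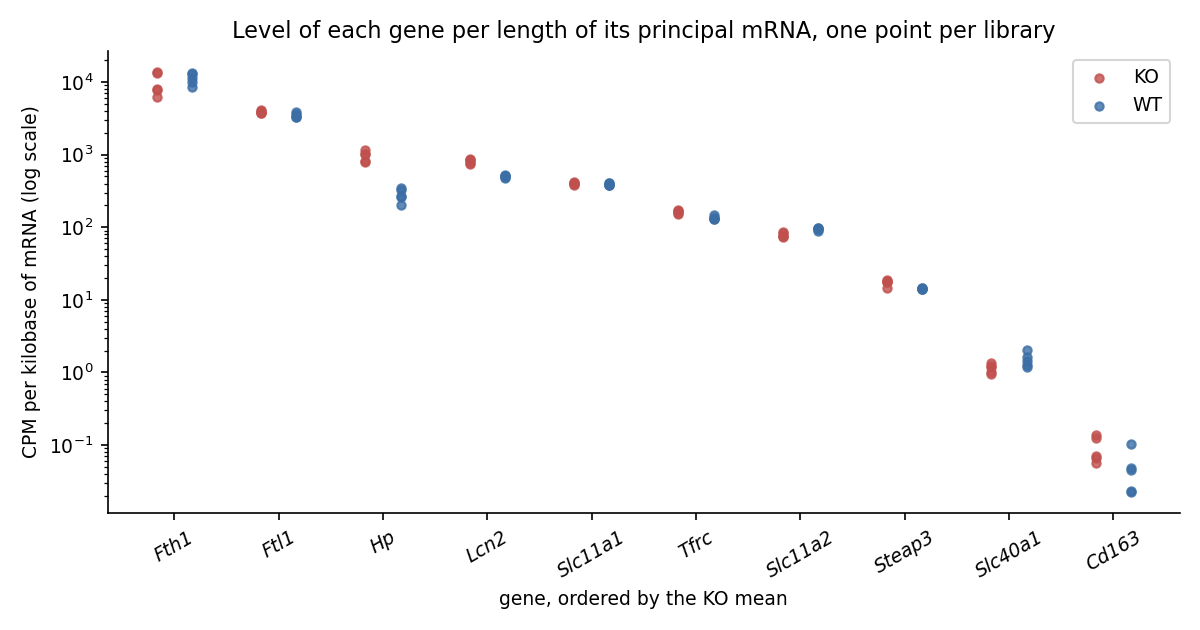
Level of each gene in CPM per kilobase of its principal mRNA (log axis), with 1 point per library, KO left of WT, ordered by the KO mean. Fth1 and Ftl1 lead and Slc40a1 and Cd163 come last in KO and WT, and Hp is the gene whose place differs most between them.

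Within KO, library KO 1 stood low for 8 of the 9 tested genes. There Fth1 lay 0.57 below its genotype mean on the log2 scale, Hp 0.25 below, Steap3 0.22 below, Lcn2 0.14 below, Tfrc 0.12 below and Slc11a2 0.11 below, while Slc40a1 lay 0.13 above. In KO 5, Fth1 and Hp lay above their means by 0.57 and 0.27, and Slc40a1 below by 0.26. The SD on the log2 scale was 0.513 in KO and 0.261 in WT for Fth1, and 0.225 in KO and 0.315 in WT for Hp. For Lcn2, Tfrc, Slc11a1, Slc11a2 and Ftl1 it was at most 0.104 in either genotype. The median of all tested genes was 0.135 in KO and 0.125 in WT. Among genes whose mean log2 CPM reached 5, as it did for each of these 7 genes, the median SD was 0.086 in KO and 0.071 in WT. Fth1 and Hp exceeded both medians in KO and in WT. The 5 steadier genes lay below the median of all genes, but Lcn2 and Slc11a2 in KO and Tfrc and Ftl1 in WT lay above that of abundant genes.

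**Figure D4:**
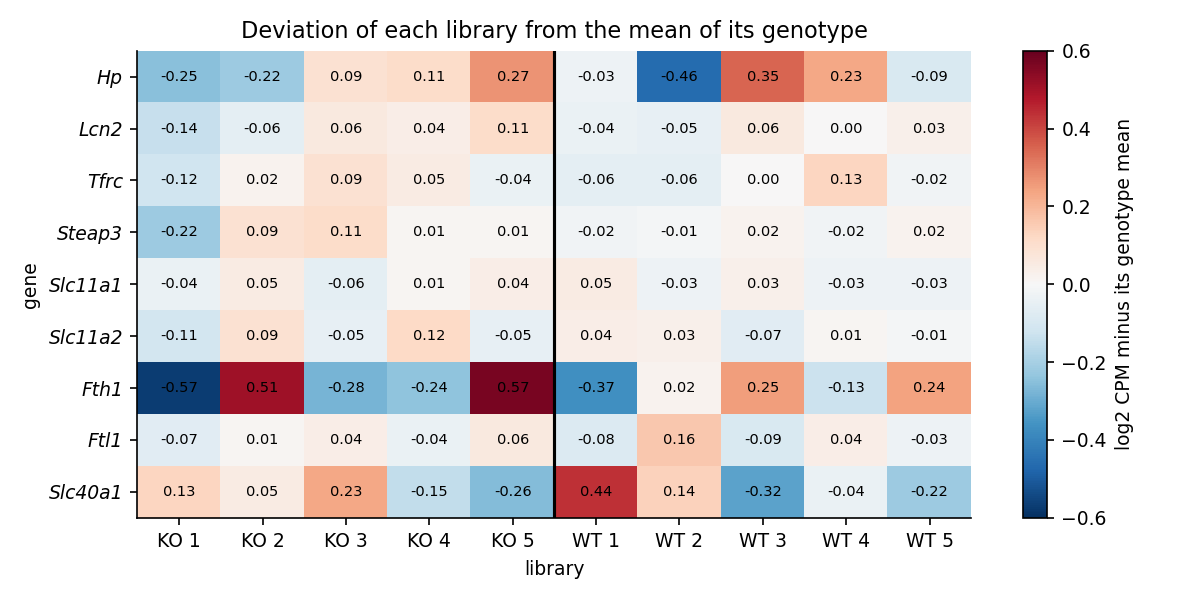
Difference of each library's log2 CPM from the mean of its genotype for the 9 tested genes (rows), KO libraries left of the line and WT libraries right of it. Fth1 spans -0.57 to 0.57 within KO, and Hp spans -0.46 to 0.35 within WT, whereas Slc11a1 stays within 0.06 of its mean.

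The wider iron pathway was read from a list of 63 other genes, chosen by function but with earlier results of these data known. Of the 52 that passed the filter, 9 were higher in KO, 8 were lower and 35 did not pass. That is 32.7% called, close to the 29.1% of all genes, so the list as a whole did not stand out. The median log2 fold change was -0.01. Hpx, Steap4 and Nfe2l2 were named by a rule of size, and the other called genes given below are named after their values were seen. With library totals, 19 were higher and 5 lower. The count of higher genes was 4 without KO 2 and 5 without WT 1.

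Of 11 tested genes of haem and haemoglobin handling, 1 was higher in KO (Hpx), 3 were lower (Hmox1, Hmox2 and Blvrb) and 7 did not pass. Hmox1, the inducible haem oxygenase that frees iron from haem, was at 2465, 2640, 2433, 2641 and 2646 CPM in KO 1 to KO 5, against 2983, 2972, 2938, 2814 and 3050 CPM in WT 1 to WT 5. No KO library reached the lowest WT library, and the log2 fold change was -0.20 ± 0.04 (edgeR adjusted p = 0.00125). Hmox2, the constitutive enzyme, and Blvrb, a biliverdin reductase, fell by 0.19 ± 0.05 and 0.29 ± 0.05 (adjusted p = 0.00836 and 0.000592). Blvra, the other reductase, had 0.07 ± 0.05 and did not pass. With library totals the median of all genes moved to 0.12 from 0.01, and 5 genes of the wider list were lower in place of 8. The values of Hmox1, Hmox2, Blvrb and, further below, Hif1a under that scaling are not given, so these small decreases may depend on it.

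Hpx, which encodes the haem-binding protein haemopexin, was called higher (log2 fold change 2.71 ± 0.86, adjusted p = 0.0345), but on KO 1 and KO 2 alone. Its level was 11.7 and 15.1 CPM in KO 1 and KO 2, with 0.933 to 1.21 CPM in the remaining KO libraries, against 0.455 to 1.77 CPM in WT. Without KO 1 and KO 2 the log2 fold change was 0.20 (adjusted p = 0.774), and the call was also lost without KO 1, KO 2, WT 1, WT 3, WT 4 or WT 5, taken out singly, at an adjusted p of 0.0687 to 0.0934. Hpx is a liver gene, and its high libraries were those with the hepatocyte transcripts. The haemoglobin genes moved with them: the erythroid list summed to 3.00 and 2.20 CPM in KO 1 and KO 2, with 0.0491 to 0.850 CPM in the remaining KO libraries, against 0.592 to 1.07 CPM in WT, with Hba-a1 and Hbb-bs the most abundant in KO 1 (exact permutation test, two-sided, p = 0.46, adjusted 0.714). The part of liver or red cell RNA in the Hpx and Tfr2 values was not tested. Slc48a1, a haem transporter of endosomes and lysosomes, was at 805, 830, 811 and 857 CPM in KO 1, KO 2, KO 4 and KO 5 and 369 CPM in KO 3, against 628 to 672 CPM in WT. Its log2 fold change was 0.19 ± 0.18 (adjusted p = 0.488), and 0.36 without KO 3 (adjusted p = 3.27e-05). Lrp1, a receptor for the haem-haemopexin complex, had -0.13 ± 0.11 and did not pass.

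Among the other import and reduction genes, 11 were tested. Steap4, a metalloreductase induced by inflammatory signals, was at 1.75, 2.55, 2.51, 1.91 and 1.41 CPM in KO 1 to KO 5, against 4.74, 5.83, 4.80, 5.48 and 6.82 CPM in WT 1 to WT 5. The groups were far apart, with a log2 fold change of -1.44 ± 0.17 (adjusted p = 6.56e-05), opposite in sign to its relative Steap3. The Steap4 values rest on 28 to 59 counts in the KO libraries and 95 to 137 counts in the WT libraries. Slc39a14, a zinc and iron importer, fell by 0.24 ± 0.05 on the log2 scale (adjusted p = 0.00558). Tfr2, a second transferrin receptor known from liver, rose by 1.41 ± 0.35 (adjusted p = 0.00952) at 0.540 to 1.29 CPM in KO and 0.154 to 0.482 CPM in WT. Its highest values were those of KO 1 and KO 2, and without both it had 0.90 (adjusted p = 0.0782). Slc25a37, the mitochondrial iron importer mitoferrin, had -0.22 ± 0.08 (adjusted p = 0.0524). Its value was -0.12 without WT 4 (adjusted p = 0.124) and -0.26 without KO 3, where it was called (adjusted p = 0.0271). Trf, the transferrin gene, had -0.17 ± 0.12 (adjusted p = 0.357).

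In storage and export, Pcbp2, a poly(C)-binding protein that also delivers iron to ferritin, fell by 0.27 ± 0.05 on the log2 scale (adjusted p = 0.00197). Its relative Pcbp1 had -0.05 ± 0.04, and Ncoa4, the receptor that sends ferritin to autophagy, 0.13 ± 0.17; neither passed. None of the 3 tested genes of export and hepcidin control passed, with Cp, the plasma ferroxidase, at 0.21 ± 0.14, or 0.07 without KO 3 and -0.06 without KO 1 and KO 3, and Hfe at -0.11 ± 0.05. Hamp, the hepcidin gene, did not pass the low-count filter, at 0.151 to 0.604 CPM in KO and 0.199 to 0.404 CPM in WT.

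Cp and Steap2 split within KO as the mesothelial markers Msln and Krt19 did, while Upk3b did not, which was noticed after the values were seen. Cp was at 33.1 and 39.9 CPM in KO 1 and KO 3, with 22.7 to 25.8 CPM in the remaining KO libraries, against 22.6 to 27.6 CPM in WT. Steap2 was at 7.23 and 11 CPM in KO 1 and KO 3, with 2.92 to 3.88 CPM in the remaining KO libraries, against 4.93 to 7.92 CPM in WT. Its log2 fold change was -0.21 ± 0.33 (adjusted p = 0.687), and -0.94 without KO 1 and KO 3 (adjusted p = 0.00254). The mesothelial marker Msln was at 8.99 and 11.4 CPM in KO 1 and KO 3. It was at 0.302 to 1.08 CPM in the remaining KO libraries and 5.03 to 9.74 CPM in WT. Krt19 was at 2.3 and 3.18 CPM in KO 1 and KO 3, and at 0.196 to 0.259 CPM in the remaining KO libraries. In WT, Krt19 was at 1.39 to 3.32 CPM. Upk3b did not split, at 0.0982 to 0.345 CPM in KO against 1.18 to 1.72 CPM in WT. The log2 fold change of Upk3b was -2.69 ± 0.26 (edgeR adjusted p = 1.32e-05), on 2 to 8 counts per KO library. The mesothelial and fibroblast list as a whole, led by Col1a1 and Col1a2, summed to 585 to 751 CPM in KO and 547 to 609 CPM in WT (exact permutation test, two-sided, p = 0.0238, adjusted 0.119). Of its 7 tested genes, Col1a1, Col1a2 and Dcn were called higher in KO, by 0.37 ± 0.05, 0.32 ± 0.06 and 0.21 ± 0.05 on the log2 scale (edgeR adjusted p = 0.000278, 0.00267 and 0.0136). Upk3b was called lower, and Msln, Krt19 and Col3a1 were not called. The part of mesothelial cells and fibroblasts in the Cp and Steap2 values was not tested.

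The genes of iron and oxygen sensing, and transcription factor genes listed with them, went in both directions. Nfe2l2, the transcription factor NRF2 that drives ferritin and haem oxygenase genes, was at 269, 272, 245, 275 and 262 CPM in KO 1 to KO 5, against 366, 369, 362, 365 and 395 CPM in WT 1 to WT 5. The groups were well apart, with a log2 fold change of -0.49 ± 0.04 (adjusted p = 3.94e-06). Hif1a fell by 0.17 ± 0.03 on the log2 scale (adjusted p = 0.00114), while Epas1, which encodes HIF-2α, rose by 0.28 ± 0.07 (adjusted p = 0.0126). Aco1, which encodes iron regulatory protein IRP1, rose by 0.18 ± 0.06 (adjusted p = 0.0282), a call lost without KO 2, KO 4 or KO 5 (adjusted p = 0.0605 to 0.0645). The IRP2 gene Ireb2 had -0.09 ± 0.05, and Fbxl5, the ligase subunit that removes IRP2 when iron is plentiful, 0.11 ± 0.04, and neither passed, though Fbxl5 was called without KO 3 or WT 2 (adjusted p = 0.0394 and 0.0348).

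In haem synthesis 2 of 8 tested genes were called, and in iron-sulfur cluster assembly 3 of 10, all higher in KO. Of all genes tested, 14.1% were called higher and 29.1% in either direction. Nothing is read from counts this small. Cpox, a late enzyme of haem synthesis, was at 22.6, 20.9, 22.7, 21.1 and 20 CPM in KO 1 to KO 5, against 18.3, 19.7, 20, 19.5 and 16.2 CPM in WT 1 to WT 5. KO 5 and WT 3 met at the same level, and Cpox rose by 0.19 ± 0.07 on the log2 scale (edgeR adjusted p = 0.0463). The call of Cpox was lost without KO 1, KO 2, KO 3, KO 4, WT 1, WT 4 or WT 5, taken out singly (adjusted p = 0.0551 to 0.101). Alas1, the first enzyme, had 0.11 ± 0.04 (adjusted p = 0.0568) and was called without KO 1, WT 3 or WT 4 (adjusted p = 0.0345 to 0.049), and Fech, which inserts the iron, -0.11 ± 0.07. Among the iron-sulfur assembly genes, Isca1 and Lyrm4 rose by 0.30 ± 0.07 and 0.25 ± 0.08 on the log2 scale (adjusted p = 0.00798 and 0.0346), and the scaffold gene Iscu did not pass, at 0.19 ± 0.12. Lyrm4 lost its call without any single library other than KO 4, WT 4 or WT 5 (adjusted p = 0.0531 to 0.0705).

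**Figure D5:**
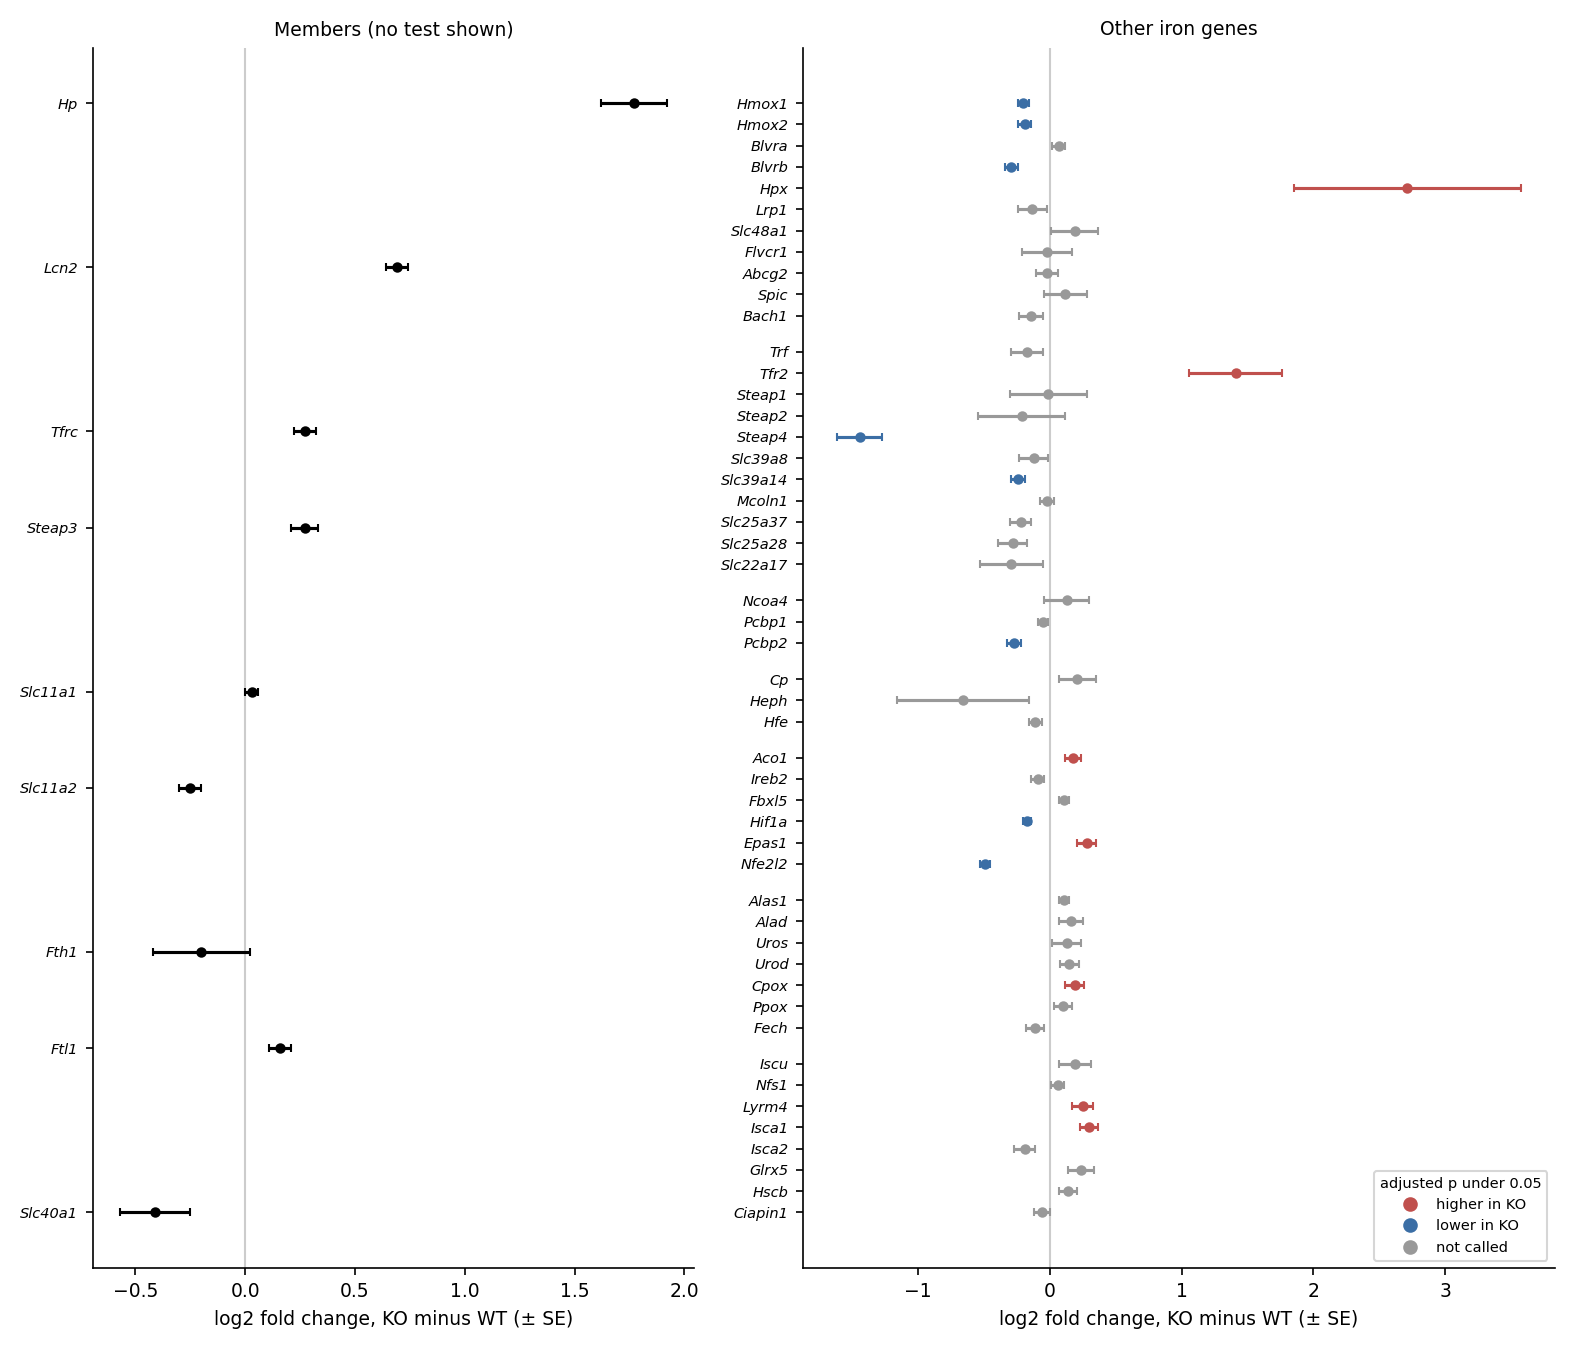
Log2 fold change, KO minus WT, with its SE, for the 9 tested genes of the set (left) and tested genes of the wider iron list (right), grouped by role with gaps between roles; on the right, colours mark calls at an adjusted p under 0.05. Hp stands at 1.77 on the left; on the right, Steap4 lies lowest at -1.44 and Hpx highest at 2.71 with the widest SE.

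The genes whose profile over the 10 libraries lay nearest to that of Hp were Mmp9, a gelatinase, Draxin, an axon guidance gene, and Rab11fip4, a vesicle traffic gene. Their root mean square distance from Hp was 0.222, 0.224 and 0.232 on the log2 scale after each profile was centred, where the median over 10886 candidate genes was 0.934. The genotype difference makes up most of such a profile, so this is a description of size and direction. Mmp9 was at 126 to 165 CPM in KO and 38.4 to 45.3 CPM in WT. Within WT, Mmp9 varied less than Hp and did not share its low value in WT 2.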

How the data were processed

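The authors deposited whole-number counts per gene and FPKM for 10 libraries, per the file headers. CASAVA 1.8, TopHat2 2.0.6 and the builds mm10 and GRCm39 are named, without roles, in the submitters' processing notes; the counter, annotation and strand setting are not stated there, so overlapping, antisense and near-identical genes cannot be separated. The WT columns match the labels, and the 5 FPKM columns of KO were not used. Gene length came from deposited WT FPKM and counts (largest relative spread 4.5e-06 over 8180 genes).

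Counts were fitted KO minus WT, in R 4.3.3 by the quasi-likelihood F test of edgeR 4.0.16, after TMM scaling and filterByExpr at a minimum of 10 counts, Benjamini-Hochberg over the 14436 genes kept, called at an adjusted p under 0.05, and the script was tested on simulated data. SE is the estimate over the root of F. Log2 CPM of single libraries has a prior count of 2. Alternatives used DESeq2 1.42.0 and limma 3.58.1. A floor of 3 counts covers counting error only and is 0.132 to 0.155 CPM. Levels per mRNA used GENCODE M21 principal transcripts, the lowest-numbered of each gene.

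Members and lists were chosen with earlier results of these data known. The text names the 10 genes, Jaml, Lyz2, wider-list genes called with a log2 fold change of at least 0.4 in size and a mean log2 CPM of at least 1, the 2 most abundant uncalled genes of each role, the 2 most abundant genes of each marker list, and the 3 genes nearest to Hp; others were named after their values were seen, and a few genes that the rule would name are not reported here. The macrophage list summed to 23410 to 25450 CPM in KO and 24118 to 25697 CPM in WT (exact permutation p = 0.571). Lyz2 held most of that sum, so the sum says little about the other markers. Of the 8 genes, Fcgr3, Csf1r and Cd14 were called higher in KO and Mertk lower. Fcgr3 differed most, at 0.67 ± 0.06 on the log2 scale, with Mertk at -0.33 ± 0.06. Values of the genes named late without each library, and the light chain level with its copy, were added after the data were seen.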

Additional observations from a re-analysis of the deposited data

Results flagged for a closer look

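In 3 of 56 groups of 5 libraries, taken over the 10 genes and the named genes of the wider list, the extreme library stood apart from the rest by more than Dixon's 95% limit of 0.71 of the range. Chance flags about 1 group in 20. Slc48a1 was at 369 CPM in KO 3, against 805 to 857 CPM in the other KO libraries, and this library decides whether the gene is called. Slc25a37 was at 415 CPM in WT 4, against 318 to 333 CPM in the other WT libraries, and its log2 fold change was -0.12 without that library and -0.22 with it. Nfe2l2 was at 395 CPM in WT 5, against 362 to 369 CPM in the other WT libraries, all above the KO values.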

How the results depend on the processing

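With library totals, 4231 genes were called higher and 1361 lower in place of 2036 and 2164, and the wider iron list had 19 higher and 5 lower in place of 9 and 8. Leaving out each library in turn gave 4 to 9 higher and 8 to 9 lower in that list, 5 to 6 of the 10 genes called, and 3765 to 4085 calls in all. The replicate block gave 3780 calls in all, 6 of the 10 genes, and 6 higher and 9 lower in the wider list; the pairs' deviations correlated at -0.114 to 0.184, and 3 of 10 libraries correlated best with their own number, so the numbers were not taken to pair the libraries. Hp ranged over 1.68 to 1.91 and Lcn2 over 0.66 to 0.81 on the log2 scale across all settings run. Tfrc ranged over 0.25 to 0.39, Steap3 over 0.24 to 0.38 and Slc11a2 over -0.27 to -0.13. Each was called in every setting, but the set was chosen with this comparison known, so these calls are no test. Hpx lost its call with limma-voom (adjusted p = 0.239) and without a low-count filter (0.0623). Slc11a1 was called with library totals. Without a low-count filter Cd163 had a log2 fold change of 0.93 and was not called. The mean ratio of Fth1 to Ftl1 in WT was 1.45 with deposited FPKM and with TPM, which share their gene lengths, so the match is no check. Low counts limit Cd163, Slc40a1, Steap4 and Tfr2.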
